A study of Mus musculus with 8 samples.

Results

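The genes described here encode 10 transporters and transporter subunits that take amino acids back from the tubular fluid of the kidney. They are Slc6a18, Slc6a19, Slc6a20a, Slc6a20b, Slc7a7, Slc7a8, Slc7a9, Slc3a1, Slc3a2 and Slc1a1, chosen by name, and each matched 1 of the 49315 gene IDs in the deposited counts. Their transcripts were counted in mRNA-seq libraries from mouse kidneys, 4 of them labelled Control and 4 labelled Conditional Knockout. The series is on the loss of Kdm1a, the gene of the histone demethylase LSD1. The question addressed is which genes change when Kdm1a is lost in the kidney. A conditional allele is removed only where a recombinase is expressed, and the recombinase driver, strain, age and sex are not given in the sources used here. The labels number the kidneys but do not say which animals or litters they came from, so p values measure the spread between these samples.

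Filtered amino acids are recovered almost entirely in the proximal tubule, the segment just after the glomerulus. Carriers of the luminal brush border take them into the cell, driven by sodium or by exchange, and carriers of the basolateral membrane release them towards the blood. Several of these carriers are pairs of a transporting light chain of the Slc7 family and a heavy chain, Slc3a1 (rBAT) in the brush border or Slc3a2 (the 4F2 heavy chain) in the basolateral membrane, which brings the light chain to the cell surface.

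The libraries held between 19524945 and 28544511 counts. Kdm1a transcripts were at 90.9 to 95.3 counts per 1000000 (CPM, with library sizes scaled by the trimmed mean of M values) in the 4 knockouts and at 110 to 120 CPM in the 4 controls (log2 fold change -0.27, SE 0.05, edgeR adjusted p 0.0194). Adrenal transcripts (11 genes) summed to 3252 CPM in knockout replicate 1, 385 CPM in knockout replicate 4, 176 CPM in control replicate 4 and between 16.01 and 32.6 CPM in the other 5 libraries, and none of the 11 was at 0 in all libraries. Y-linked transcripts were high in 5 libraries and low in control replicate 2 and knockout replicates 1 and 4. Of 5 nephron progenitor markers, Cited1 and Meox1 were called lower (log2 fold changes -1.64 and -1.45, edgeR adjusted p 0.0225 and 0.0132), and Six2, Eya1 and Crym were not called (0.47, 0.19 and 0.40). Proximal tubule markers (20 genes, none at 0 in all libraries) summed to between 968 and 3975 CPM in controls and between 158 and 653 CPM in knockouts. Markers of other nephron cells were lower too. Of 5 thick ascending limb markers 4 were called lower (median log2 fold change -2.44 over the 5), with Umod at 179 ± 116 CPM in controls and 3.73 ± 6.06 CPM in knockouts. Of 3 distal convoluted tubule markers tested 1 was called lower, Slc12a3 (-2.80, edgeR adjusted p 0.0190), and of 5 podocyte markers 2 were, Nphs1 (-1.92) and Podxl (-1.13, edgeR adjusted p 0.0300 for both). With any 1 of the 6 libraries other than control replicate 2 and knockout replicate 3 left out, edgeR called 0 of the thick ascending limb markers. It called 0 of the podocyte markers without control replicate 3 or 4 or without knockout replicate 1, 2 or 4. The call of Slc12a3 was lost without control replicate 3, knockout replicate 1 or knockout replicate 4. Whether the transporters fell more than these markers was not tested. In whole-kidney RNA, fewer cells of a type and less RNA per cell cannot be told apart.

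All 10 transporter genes had a lower fitted level in the knockout, and 7 of them fell at an adjusted p under 0.05 in the quasi-likelihood test of edgeR over 18485 genes (termed a call). The 7 were the brush border genes Slc6a18, Slc6a19, Slc6a20a, Slc6a20b, Slc7a9, Slc3a1 and Slc1a1, whose mean in the knockout was between 5.30% and 21.3% of the control mean. The 3 basolateral genes, Slc3a2, Slc7a7 and Slc7a8, were not called. Over all genes tested 8.27% were called lower and 6.61% higher, while 0 of the 10 were called higher. The median log2 fold change was -2.53 over the 10 and 0.00 over all genes. All 4 knockout libraries lay below all 4 controls for the same 7 genes. Such a separation was seen downwards in 9.58% and upwards in 9.29% of all genes tested. Of the 7, Slc6a20a and Slc6a20b passed the filter on low counts in all controls but in only 1 and 2 knockouts. Their place among the genes tested thus depended on the controls. The calls depended on which libraries were included. So did those over all genes, at 2751 with all 8 libraries and between 153 and 7084 with 1 left out. Without knockout replicate 4, 0 of the 10 were called by edgeR, 8 had an unadjusted p under 0.05, and the 7 had log2 fold changes between -4.14 and -2.23 with adjusted p between 0.0566 and 0.0852. Without control replicate 1, control replicate 3 or knockout replicate 1 there were 4 calls each, with Slc6a18, Slc6a20a and Slc7a9 lost each time, and without control replicate 4 there were 6, with Slc6a20a lost. With all 8 libraries, DESeq2 called 9 of the 10, with Slc3a2 and Slc7a7 added, and limma-voom called all 10. The basolateral genes were thus uncalled by edgeR but not by every tool. These tools also called more genes in total, 4506 with DESeq2 and 8302 with limma-voom, against 2751 with edgeR. All members tested were lower in each of the 19 alternative fits.

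**Figure D1:**
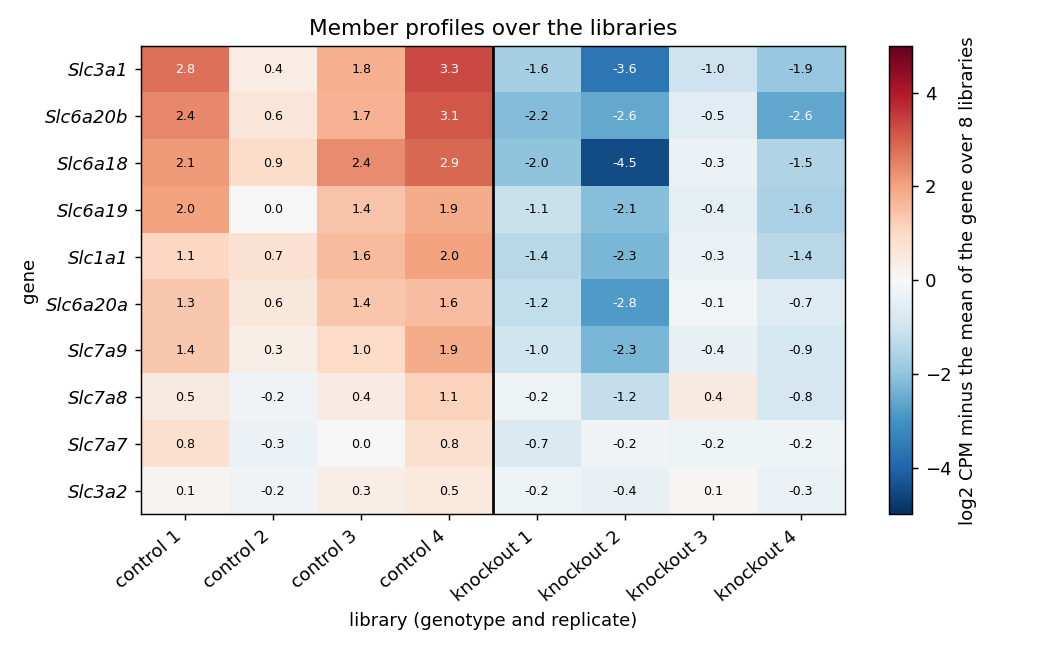
Colour and number give the log2 CPM of each member gene (rows, ordered by fold change) in each of the 8 libraries (columns), minus the mean of the gene over the libraries. The 7 brush border genes at the top are above their mean or at it in all 4 controls and below it in all 4 knockouts, with control replicate 2 and knockout replicate 3 nearest to the mean, whereas each of the 3 basolateral genes at the bottom is below its mean in control replicate 2.

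The order of the libraries was shared by most of the 10 genes. Control replicate 2 was the lowest control for 10 of the 10 and control replicate 4 the highest for 9. Control replicate 2 was also the only control with low Y-linked transcripts, whereas knockout replicates 2 and 3 both had high ones. Whether this difference set the order was not tested. Among the knockouts, replicate 2 was the lowest for 8 of the 10 and replicate 3 the highest for 9. The proximal tubule markers followed the same order, with control replicate 2 and knockout replicate 2 lowest and control replicate 4 and knockout replicate 3 highest in their groups. The part of the marker level in the fall of the transporters was not tested.

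Slc6a19 (ENSMUSG00000021565, chromosome 13, 73679745 to 73704865, minus strand, GRCm38) encodes the main sodium-coupled carrier of neutral amino acids in the brush border, whose human counterpart is mutated in Hartnup disorder. The 4 controls had, in order of replicate, 11.96, 3.01, 7.99 and 10.9 CPM and knockouts 1 to 4 had 1.31, 0.602, 2.15 and 0.899 CPM. Every knockout lay below every control, although control replicate 2 was only 1.40 times as high as knockout replicate 3. The log2 fold change was -2.75 (SE 0.49, edgeR adjusted p 0.0159), and over the 19 alternative fits the adjusted p ran from 4.44e-07 to 0.0613. An antisense gene, Slc6a19os, overlaps the locus on the opposite strand, and whether reads were assigned by strand is not stated. Coordinates are those of the deposited tables, here and for the genes that follow.

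Slc6a18 (ENSMUSG00000021612, chromosome 13, 73661750 to 73678023) lies beside Slc6a19 and encodes a related carrier of neutral amino acids, glycine among them, in later parts of the proximal tubule. In controls 1 to 4 there were 82.1, 34.7, 96.3 and 135 CPM, and in knockouts 1 to 4 there were 4.48, 0.753, 15.2 and 6.40 CPM. The groups did not overlap, but the knockouts differed from each other 20.2-fold, more than for any other of the 9 members with counts in every knockout. Slc6a18 had a log2 fold change of -3.66 (SE 0.69, edgeR adjusted p 0.0183), with adjusted p from 1.79e-04 to 0.0692 over the alternatives.

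Slc6a20a (ENSMUSG00000036814, chromosome 9, 123634770 to 123678885) and its neighbour Slc6a20b (ENSMUSG00000025243, chromosome 9, 123590800 to 123632565) are related genes of the family that carries imino acids such as proline. Their promoter windows (250 bases before to 50 after a RefSeq start, GRCm38.p6, minus strand, chr9:123678783-123679082 and chr9:123632489-123632788) are shown because both paralogs fell. They are in lower case throughout, since neither motif searched below is in them.
Slc6a20a: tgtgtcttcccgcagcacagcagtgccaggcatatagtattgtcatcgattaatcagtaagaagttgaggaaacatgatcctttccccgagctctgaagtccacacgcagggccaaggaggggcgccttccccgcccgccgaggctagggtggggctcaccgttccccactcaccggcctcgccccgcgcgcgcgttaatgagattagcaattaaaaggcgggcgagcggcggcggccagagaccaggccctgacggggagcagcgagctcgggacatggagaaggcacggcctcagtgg
Slc6a20b: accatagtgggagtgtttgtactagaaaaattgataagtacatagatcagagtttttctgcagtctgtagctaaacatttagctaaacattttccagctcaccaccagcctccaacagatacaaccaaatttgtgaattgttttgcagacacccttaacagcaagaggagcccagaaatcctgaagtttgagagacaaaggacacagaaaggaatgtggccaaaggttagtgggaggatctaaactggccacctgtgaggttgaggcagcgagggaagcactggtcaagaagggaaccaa

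Slc6a20b was the more abundant of the pair. Its level in controls 1 to 4 was 12.003, 3.38, 7.39 and 19.1 CPM and in knockouts 1 to 4 it was 0.422, 0.301, 1.49 and 0.288 CPM, a log2 fold change of -4.01 (SE 0.68, edgeR adjusted p 0.0137). The lowest control was 2.28 times the highest knockout, and adjusted p ran from 4.77e-09 to 0.0566 over the alternatives. Slc6a20a was scarce everywhere, with 123 counts summed over control libraries and 25 over knockout libraries. Its controls 1 to 4 had 1.39, 0.788, 1.45 and 1.64 CPM, and knockouts 1, 3 and 4 had 0.169, 0.450 and 0.288 CPM. Knockout replicate 2 had 0 counts, which allows up to 0.151 CPM (3 counts, counting error only). The groups did not overlap, and the log2 fold change was -2.43 (SE 0.58, edgeR adjusted p 0.0286). The call of Slc6a20a held in 11 of 18 alternatives, with adjusted p from 9.01e-04 to 0.0852. Slc6a20a and Slc6a20b passed the filter on low counts in 1 and 2 of the knockout libraries and in all controls, so their testing depended on the group in which they were high. Reads that match both paralogs make the split between them uncertain, and Slc6a20a overlaps Ccr9 and Slc6a20b overlaps Sacm1l on the opposite strand.

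Slc3a1 (ENSMUSG00000024131, chromosome 17, 85028347 to 85064243, plus strand) and Slc7a9 (ENSMUSG00000030492, chromosome 7, 35448796 to 35466036, plus strand) encode the heavy and light chain of the brush border exchanger for cystine and dibasic amino acids, and both human genes are mutated in cystinuria. The promoter windows of Slc3a1 (GRCm38.p6, chr17:85028097-85028396, plus strand) and of the other heavy chain, Slc3a2 (chr19:8713848-8714147, minus strand), are shown because Slc3a1 was called lower and Slc3a2 was not. Capitals mark AAAGTCC, the core of sites for HNF4, a transcription factor of the proximal tubule.
Slc3a1: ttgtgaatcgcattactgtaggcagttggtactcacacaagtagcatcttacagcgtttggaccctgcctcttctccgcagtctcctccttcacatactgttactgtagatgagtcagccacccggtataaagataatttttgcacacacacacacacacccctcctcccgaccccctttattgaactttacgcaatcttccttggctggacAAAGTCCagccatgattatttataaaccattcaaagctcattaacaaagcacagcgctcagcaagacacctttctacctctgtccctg
Slc3a2: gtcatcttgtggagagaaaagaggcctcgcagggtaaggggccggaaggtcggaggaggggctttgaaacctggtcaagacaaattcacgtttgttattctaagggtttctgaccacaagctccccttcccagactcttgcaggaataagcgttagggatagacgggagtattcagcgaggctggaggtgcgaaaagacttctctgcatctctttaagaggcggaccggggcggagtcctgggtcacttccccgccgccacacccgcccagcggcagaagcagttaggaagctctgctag
In Slc3a1 the HNF4 core is at position -38 from the start, on the plus strand, while these letters are not in the Slc3a2 window.

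Promoter windows were found for 9 of the 10 members, and not for Slc6a18. AAAGTCC (both strands) was in the window of 1 of 9, Slc3a1, and in 4.84% of the 27025 genes of the RefSeq promoter table. CACGTG, an E-box that reads the same on both strands, was in 0 of 9 and in 8.09% of all genes. A match is a description of the letters and not of a bound site.

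Slc3a1 had the largest fitted fall of the 10. Controls 1 to 4 had 60.8, 11.6, 30.5 and 87.7 CPM and knockouts 1 to 4 had 2.79, 0.653, 4.32 and 2.34 CPM. The knockout mean, 2.53 ± 1.51 CPM, was 5.30% of the control mean of 47.6 ± 33.5 CPM (mean ± SD, n = 4 each). The controls themselves differed 7.57-fold. Every knockout was below every control, the log2 fold change was -4.20 (SE 0.68, edgeR adjusted p 0.0130), and adjusted p ran from 1.08e-06 to 0.0566 over the alternatives. Prepl overlaps the end of Slc3a1 on the opposite strand.

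Its partner Slc7a9 also fell. The controls, replicates 1 to 4, had 14.1, 6.63, 10.7 and 19.95 CPM and knockouts 1 to 4 had 2.70, 1.05, 4.22 and 2.95 CPM, which leaves 21.3% of the control mean. The groups did not overlap. Slc7a9 had a log2 fold change of -2.21 (SE 0.43, edgeR adjusted p 0.0189), with adjusted p from 4.44e-06 to 0.0670 over the alternatives.

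Slc1a1 (ENSMUSG00000024935, chromosome 19, 28835049 to 28913960) encodes the brush border carrier of glutamate and aspartate, whose loss in humans causes dicarboxylic aminoaciduria. Replicates 1 to 4 of the controls had 11.4, 9.18, 16.3 and 22.0 CPM, and knockouts 1 to 4 had 2.03, 1.05, 4.32 and 2.05 CPM. The lowest control was 2.12 times the highest knockout. The log2 fold change was -2.62 (SE 0.425, edgeR adjusted p 0.0130), and adjusted p ran from 1.3e-08 to 0.0566 over the alternatives. The protein-coding gene 4430402I18Rik overlaps Slc1a1 on the opposite strand.

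The basolateral genes had smaller fitted changes, and none was called. Slc3a2 (ENSMUSG00000010095, chromosome 19, 8706882 to 8723369), the heavy chain that serves most cell types as well as the tubule, had 102, 82.6, 115 and 134 CPM in controls 1 to 4. Knockouts 1 to 4 had 79.4, 71.4, 96.5 and 75.5 CPM. Knockout replicate 3 was above control replicate 2, so the groups overlapped. The log2 fold change was -0.43 (SE 0.15, edgeR adjusted p 0.0807). Slc3a2 was called lower in 5 of 19 alternatives, with adjusted p from 0.00223 to 0.198.

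Slc7a7 (ENSMUSG00000000958, chromosome 14, 54369442 to 54417780) encodes the light chain that exports dibasic amino acids and is mutated in human lysinuric protein intolerance. Its controls 1 to 4 had 38.3, 18.0, 22.4 and 38.6 CPM, and knockouts 1 to 4 had 13.5, 19.4, 18.6 and 18.9 CPM. Control replicate 2 lay within the knockout range, and the knockouts differed only 1.44-fold. The log2 fold change was -0.74 (SE 0.25, edgeR adjusted p 0.0750), with a call in 4 of 19 alternatives and adjusted p from 0.00939 to 0.197. Slc7a7 is also expressed in macrophages, and of their markers Csf1r was at 31.6 ± 10.3 and 24.0 ± 5.59 CPM and Adgre1 at 3.86 ± 0.399 and 3.94 ± 0.801 CPM in controls and knockouts, and neither these nor Cd68 (log2 fold change 0.30) were called. The general leukocyte gene Ptprc rose from 20.3 ± 4.99 to 38.6 ± 3.07 CPM (log2 fold change 0.93, edgeR adjusted p 0.0146), and Cd3e was at 0.278 CPM or less in every library. The 5 leukocyte markers summed to 53.6 to 68.3 CPM in controls and 64.7 to 80.1 CPM in knockouts. Their part in the Slc7a7 level was not tested. Oxa1l overlaps the end of Slc7a7 on the opposite strand.

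Slc7a8 (ENSMUSG00000022180, chromosome 14, 54722216 to 54781886) encodes the light chain of a basolateral exchanger of neutral amino acids. Controls 1 to 4 had 35.4, 22.7, 34.2 and 56.5 CPM. Knockouts 1 to 4 had 21.5, 11.0, 34.9 and 14.2 CPM. Knockout replicate 3 was above control replicates 2 and 3, so the groups overlapped widely. The log2 fold change was -0.86 (SE 0.37, edgeR adjusted p 0.136), and Slc7a8 was called in 3 of 19 alternatives, with adjusted p from 0.00430 to 0.332.

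**Figure D2:**
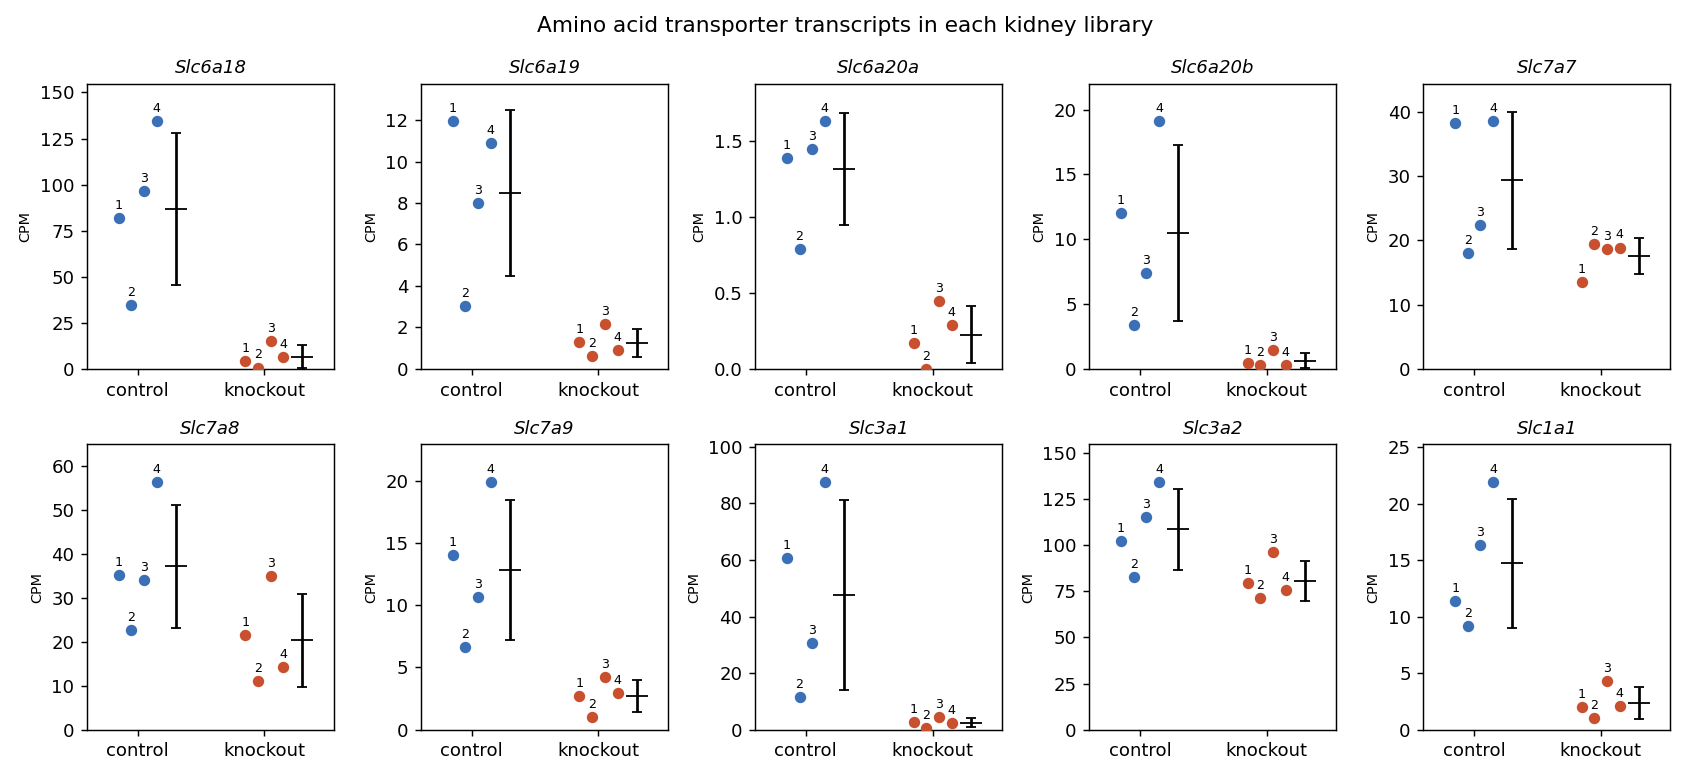
Each panel plots the CPM of 1 gene (vertical axis from 0) in the 4 control and 4 knockout libraries, with the replicate number above each point and the group mean ± SD in black. In Slc3a1 the controls spread from 11.6 to 87.7 CPM while all knockouts are at 4.32 CPM or less, and in Slc3a2, Slc7a7 and Slc7a8 the groups overlap.

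In the 5 libraries with high Y-linked transcripts (3 controls and 2 knockouts, an alternative chosen after seeing the data), edgeR called 6 of the 10 members lower, all but Slc6a20a of the 7 above. The same fit called 12 of 20 proximal tubule markers and 6 of 30 other amino acid transport genes lower. Its share of calls over all genes is not reported here, so the 6 cannot be set against it. In these libraries Slc3a1 was at 30.5 to 87.7 CPM in controls and 0.653 to 4.32 CPM in knockouts. Slc7a8 was the member that still overlapped, with 34.2 to 56.5 CPM in controls and 11.0 to 34.9 CPM in knockouts.

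Levels of different genes were compared per length, as CPM per kilobase of the deposited gene length. In controls Slc3a2 was the most abundant (30.8 ± 6.20 CPM per kilobase), followed by Slc3a1 (20.7 ± 14.5), Slc6a18 (19.7 ± 9.37), Slc7a8 (9.22 ± 3.496), Slc7a7 (8.91 ± 3.24) and Slc7a9 (4.79 ± 2.11 CPM per kilobase). Below these came Slc1a1 (2.39 ± 0.92), Slc6a19 (1.69 ± 0.80), Slc6a20b (1.23 ± 0.79) and Slc6a20a (0.323 ± 0.0900 CPM per kilobase, SD, n = 4 for each). The libraries of each gene overlapped those of the next in all 9 neighbouring pairs. In knockouts Slc3a2 led with 22.9 ± 3.12 CPM per kilobase, and its 4 libraries lay above those of the next gene, Slc7a7 (5.34 ± 0.84 CPM per kilobase). Slc7a8 came next (5.06 ± 2.63), ahead of Slc6a18 (1.52 ± 1.39), Slc3a1 (1.09 ± 0.65) and Slc7a9 (1.02 ± 0.49 CPM per kilobase). Slc1a1, Slc6a19, Slc6a20b and Slc6a20a were again the last 4, between 0.383 and 0.0555 CPM per kilobase. The libraries overlapped in 8 of these 9 neighbouring pairs. The basolateral genes thus held ranks 1, 2 and 3 in the knockout and 1, 5 and 4 in the control.

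Ratios of read counts between 2 members do not depend on the library size, and 6 were compared between genotypes by exact two-sided permutation tests, adjusted by Benjamini-Hochberg over the 6. With 4 against 4 libraries the smallest possible p is 0.0286. The log2 ratio of Slc3a1 to Slc3a2, the heavy chains, had a mean of -1.53 in controls (between -2.83 and -0.62) and of -5.25 in knockouts (between -6.72 and -4.47), a difference of -3.73 with no overlap of the 4 libraries each (exact permutation p = 0.0286, adjusted 0.0857). The luminal heavy chain was lower relative to the basolateral one in every knockout than in every control, but the adjusted p missed 0.05.

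The next ratio compared the chains of the cystine exchanger. The log2 ratio of Slc7a9 to Slc3a1 was -2.11, -0.80, -1.52 and -2.14 in controls 1 to 4 and -0.04, 0.67, -0.03 and 0.33 in knockouts 1 to 4. The difference was 1.87, again without overlap (exact permutation p = 0.0286, adjusted 0.0857). Counts of the light chain were therefore below those of the heavy chain in every control and similar to them in the knockouts.

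The other 4 ratios overlapped between the groups. The log2 ratio of Slc6a18 to Slc6a19 was 3.38 ± 0.40 in controls and 1.92 ± 1.18 in knockouts (n = 4 each, exact permutation p = 0.0857, adjusted 0.171). For Slc6a20a to Slc6a20b it was -2.75 ± 0.67 and -1.65 ± 1.54 (exact permutation p = 0.229, adjusted 0.274). For Slc7a7 to Slc3a2 it was -1.94 ± 0.42 and -2.20 ± 0.32 (exact permutation p = 0.371, adjusted 0.371), and for Slc7a8 to Slc3a2 it was -1.60 ± 0.27 and -2.11 ± 0.55 (exact permutation p = 0.171, adjusted 0.257). No ratio passed an adjusted p of 0.05. With 5 instead of 0.5 counts added, the ratios of Slc3a1 to Slc3a2, Slc7a9 to Slc3a1, Slc6a18 to Slc6a19 and Slc6a20a to Slc6a20b each had an exact permutation p of 0.0286 and an adjusted p of 0.0429. Adding 5 pulls ratios of small counts towards 0. Knockouts 1 to 4 had 4, 0, 13 and 8 counts of Slc6a20a and 10, 6, 43 and 8 of Slc6a20b. Knockout replicate 2 had 15 counts of Slc6a18 and 12 of Slc6a19. The p values with 5 added therefore cannot show that these last ratios changed.

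**Figure D3:**
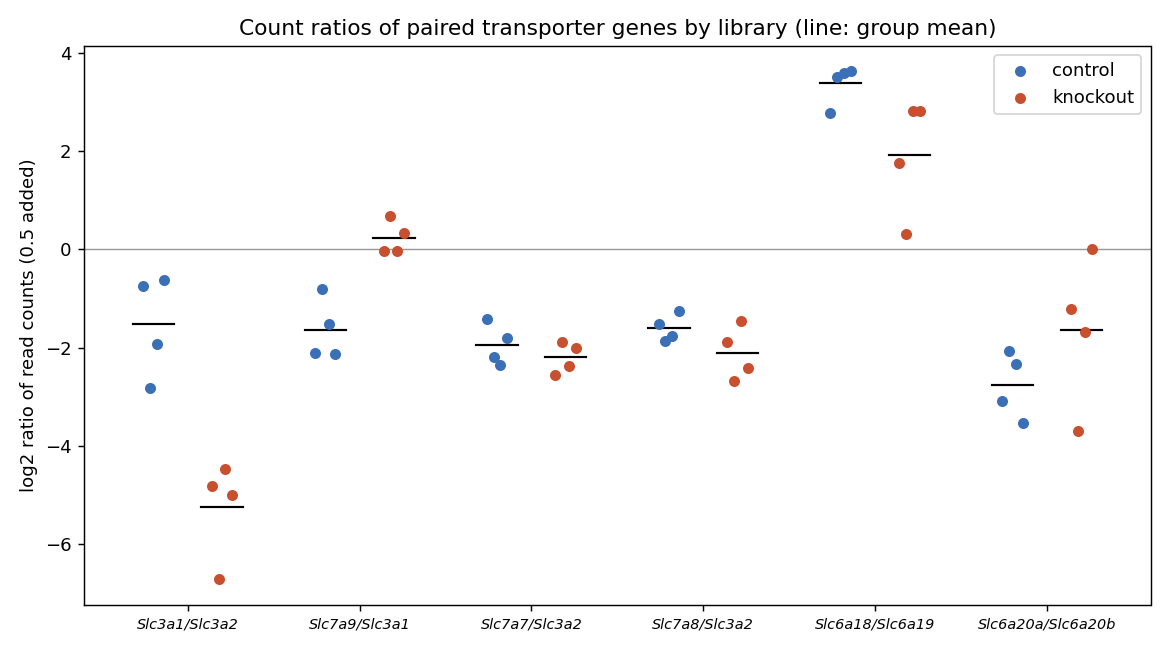
Points give the log2 ratio of the read counts of 2 genes (0.5 added to each) in each library, controls left and knockouts right of each tick, and lines give group means. The Slc3a1 to Slc3a2 and Slc7a9 to Slc3a1 ratios separate the groups, while the other 4 overlap.

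The transporters were also set beside the proximal tubule markers, as a description without a test. The mean log2 CPM of the 19 tested markers was 5.98 ± 0.89 in controls and 2.82 ± 1.08 in knockouts, a difference of -3.16. With all 8 libraries edgeR called 19 of 19 lower, against 8.27% of all genes. Of these 19 calls, 1 was kept without knockout replicate 4, that of Pck1, and 3 without knockout replicate 1. There were 5 kept without control replicate 1, 5 without control replicate 3, 7 without control replicate 4 and 12 without knockout replicate 2. Relative to this mean, Slc6a18, Slc3a1 and Slc6a20b were lower in the knockout by -0.98, -0.93 and -0.76 on the log2 scale. Slc1a1, Slc6a19, Slc6a20a and Slc7a9 were higher relative to it, by 0.48, 0.50, 0.74 and 0.92. Slc7a8, Slc7a7 and Slc3a2 were higher relative to it by 2.23, 2.49 and 2.75. The log2 CPM values here carry a prior count of 2, which pulls low values such as those of Slc6a20a towards each other. All 7 brush border genes were within 0.98 log2 units of the change of the marker mean. The 19 markers themselves had fitted log2 fold changes from -5.86 (Miox) to -0.69 (Slc4a4).

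By the root mean square difference of centred log2 CPM over the 8 libraries, the genes closest to the median profile of the 10 members were Lrp2, Car4, Susd3, Slc6a13 and Acaa1b, out of 12116 genes compared. Lrp2, the endocytic receptor megalin of the proximal tubule, differed by 0.12 log2 units and went from 242 ± 104 to 51.3 ± 28.01 CPM. Car4, a membrane carbonic anhydrase, and Susd3 both differed by 0.18, Slc6a13 by 0.19 and Acaa1b, a peroxisomal thiolase, by 0.20. Within the members, Slc7a9 was nearest to that profile (0.19) and Slc3a2 farthest (1.12). Slc7a9 was the nearest member to Slc6a19, Slc6a20a and Slc1a1, and Slc3a2 was nearest to Slc7a7 and Slc7a8.

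Of 30 other genes of amino acid transport, all of which were tested, 6 were called lower and 1 higher, against 8.27% and 6.61% of all genes. Their median log2 fold change was -0.06. Those called lower were Slc7a13, Slc6a12, Cltrn, Slc6a13, Slc43a2 and Slc38a3, and the gene called higher was Slc38a2. Slc6a12 was the only 1 of the 7 called in all 19 alternatives. Without knockout replicate 4, Slc6a12 alone of the 7 was called. Without control replicate 1, control replicate 3 or knockout replicate 1, 3 of the 7 were, without knockout replicate 2, 4 were, and without control replicate 4, 5 were.

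Cltrn encodes collectrin, the accessory protein that Slc6a19 and Slc6a18 need to reach the brush border. It went from 92.0 ± 39.2 to 9.85 ± 8.20 CPM (n = 4 each), with 45.8 CPM in the lowest control and 21.9 CPM in the highest knockout (log2 fold change -3.21, SE 0.55, edgeR adjusted p 0.0144). Slc7a13, another light chain that pairs with Slc3a1 in the late proximal tubule, went from 10.9 ± 7.18 to 0.331 ± 0.344 CPM (-4.96, SE 0.75, edgeR adjusted p 0.0111). It is known to be higher in male kidneys, and the call was kept in the 5 libraries with high Y-linked transcripts.

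Other basolateral routes differed among themselves. Slc43a2, an exporter of branched-chain and aromatic amino acids, went from 32.2 ± 13.2 to 11.9 ± 2.53 CPM (log2 fold change -1.44, edgeR adjusted p 0.0220). Slc38a3, a glutamine carrier, went from 27.1 ± 12.1 to 12.7 ± 1.56 CPM (-1.09, edgeR adjusted p 0.0388). The call of Slc38a3 was kept in 10 of 19 alternatives (adjusted p from 0.00196 to 0.101) and was lost with the covariate for Y-linked and with that for adrenal transcripts, and the call of Slc43a2 was kept in 13 of 19. The groups overlapped for both genes. Slc16a10, which exports aromatic amino acids, was at 15.7 ± 4.57 and 14.5 ± 1.89 CPM (-0.12, SE 0.20, edgeR adjusted p 0.701). Among light chains that pair with Slc3a2, Slc7a5 was at 33.4 ± 1.27 and 32.4 ± 2.03 CPM (-0.04, SE 0.07, edgeR adjusted p 0.674) and Slc7a6 at 52.1 ± 5.65 and 46.4 ± 2.77 CPM (-0.17, SE 0.09, edgeR adjusted p 0.206).

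Slc6a12 and Slc6a13, carriers of betaine, GABA and related compounds, were called lower, by -3.35 (SE 0.50, edgeR adjusted p 0.0110) and -2.56 (SE 0.50, edgeR adjusted p 0.0192). Slc6a12 went from 7.95 ± 1.86 to 0.759 ± 0.576 CPM. Slc38a2, a widely expressed carrier of neutral amino acids, rose from 263 ± 12.7 to 339 ± 25.3 CPM (log2 fold change 0.37, SE 0.07, edgeR adjusted p 0.0183), with every knockout above every control. The taurine carrier Slc6a6 was at 187 ± 16.8 and 204 ± 22.6 CPM (0.13, edgeR adjusted p 0.336). The peptide carrier Slc15a2 was at 31.7 ± 12.1 and 29.8 ± 7.14 CPM (-0.09, edgeR adjusted p 0.832), Slc1a4 at 14.9 ± 1.29 and 13.5 ± 1.27 CPM (-0.14, edgeR adjusted p 0.381) and Slc36a2 at 0.608 ± 0.347 and 1.06 ± 0.393 CPM (0.78, edgeR adjusted p 0.255).

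**Figure D4:**
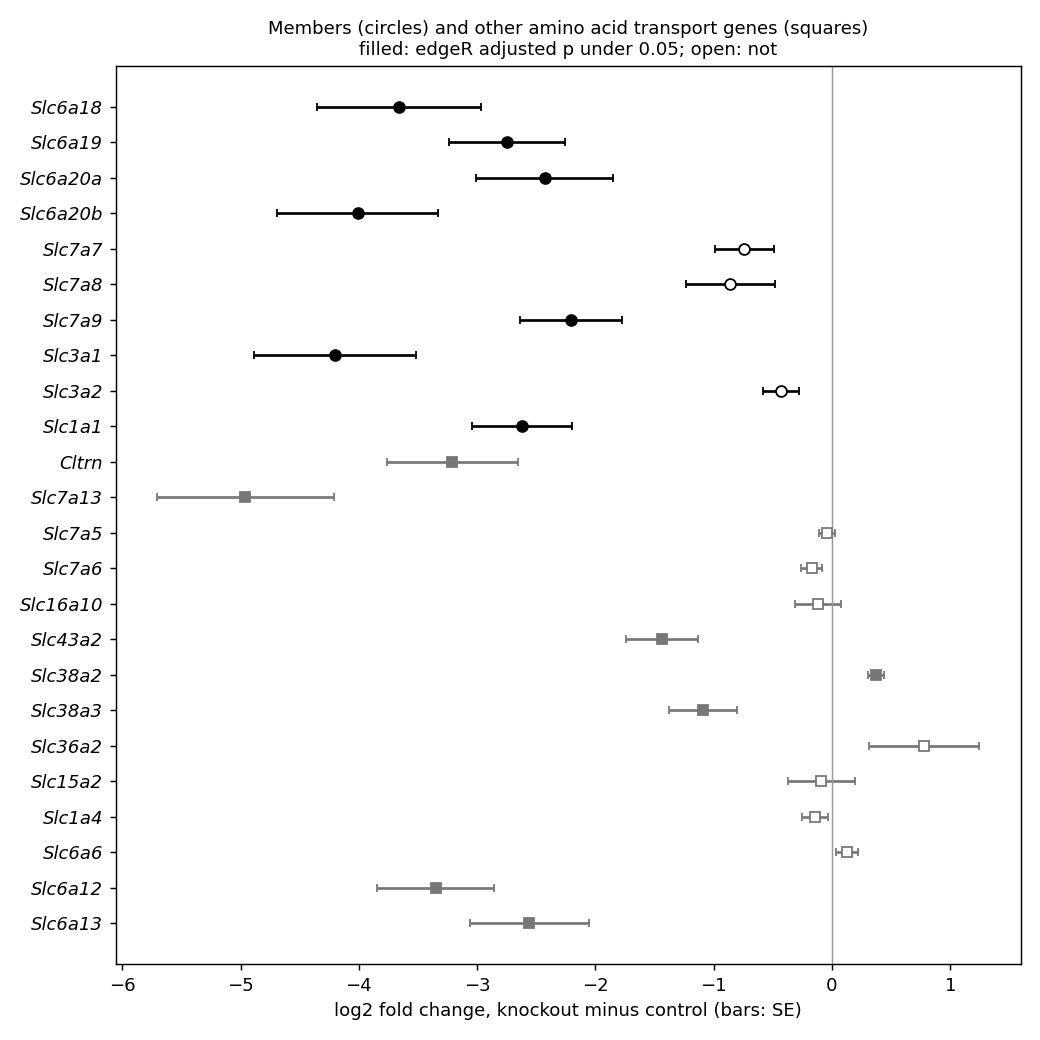
The horizontal axis gives the log2 fold change of the knockout against the control with its SE for the 10 members (circles) and other amino acid transport genes (squares), and filled symbols mark an edgeR adjusted p under 0.05. Brush border members and Slc7a13, Cltrn, Slc6a12 and Slc6a13 are at -2.21 or below, whereas Slc7a5, Slc7a6 and Slc16a10 are near 0.

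Among transcription factors of the proximal tubule, Hnf4a and Ppara were called lower. Hnf4a went from 115 ± 40.8 to 23.9 ± 14.1 CPM (log2 fold change -2.26, edgeR adjusted p 0.0336) and Ppara from 4.24 ± 1.32 to 1.49 ± 0.863 CPM (-1.49, edgeR adjusted p 0.0473). These calls were kept in 11 and 10 of 19 alternatives. Knockout replicate 2, the lowest knockout for 8 of the 10 transporters, also had the lowest Hnf4a, 3.31 CPM. The same library had the lowest summed proximal tubule (158 CPM) and thick ascending limb (9.64 CPM) markers. A part of Hnf4a in the transporter levels was not tested. Of 12 genes of the amino acid stress response, whose factor Atf4 also acts on Slc3a2 and Slc7a5, 3 were called lower and 0 higher, against 8.27% and 6.61% of all genes. Asns, asparagine synthetase, went from 15.1 ± 1.51 to 7.76 ± 0.861 CPM (-0.96, SE 0.13, edgeR adjusted p 0.00815). Cth changed by -1.19 and Shmt2 by -0.55 on the log2 scale (edgeR adjusted p 0.0192 and 0.0267), while Atf4 itself was at 212 ± 10.4 and 201 ± 11.3 CPM (edgeR adjusted p 0.420). Asns was called in all 19 alternatives. With each of the 8 libraries omitted in turn, Cth lost its call 5 times and Shmt2 6 times. Asns was the only 1 of the 3 called without control replicate 1, control replicate 3, knockout replicate 1, knockout replicate 2 or knockout replicate 4.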

How the data were processed

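Counts per gene were deposited for 8 mouse kidney libraries, and the authors' tables also give exon coordinates, strand and gene length, per the file headers. The deposited read counts are whole numbers without normalization. The deposited gene length, in bases, belongs to no sample and served only to express levels per kilobase. The submitters' processing notes name Trimmomatic 0.36, STAR 2.5.2b, featureCounts of Subread 1.5.2, DESeq2 and GRCm38, and the handling of strand and of reads matching several genes is not given in the sources used here. The series table and the tables per library differed in 0 cells. Gene IDs were paired with GENCODE M21 symbols (48970 of 49315 matched), and promoter sequences come from RefSeq (GRCm38.p6).

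The genotype comparison used edgeR 4.0.16 (glmQLFit and glmQLFTest, R 4.3.3) after TMM scaling, filterByExpr at its defaults (a level of 0.412 CPM, 18485 genes kept), no covariate and Benjamini-Hochberg adjustment over all genes. All adjusted p values of genes come from it, SEs come from the fold change and F statistic, and the function was tested on simulated data. Alternatives used DESeq2 1.42.0 size factors or tests, limma 3.58.1 (voom with sample weights), other filters, covariates for Y-linked and adrenal transcripts, a replicate block and each library left out.

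The members, 18 gene lists (148 genes, all matched), motifs and tests were chosen with earlier results of these data known. The text names all members, fixed transport genes by role, up to 4 further called genes per direction, up to 3 called genes of other lists where used, and the 5 genes nearest in profile with a mean of at least 5 CPM. Some genes and a motif of these lists are not reported here.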

Additional observations from a re-analysis of the deposited data

Results flagged for a closer look

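The 4 libraries of each genotype were examined for a single distant value in each of the 10 members and 6 ratios, 32 groups in all, of which chance marks about 1 in 20. Knockout replicate 3 stood above the other knockouts for Slc6a20b, at 1.49 CPM. Knockout replicate 1 stood below the others for Slc7a7, at 13.5 CPM. Control replicate 1 stood below the other controls for the log2 ratio of Slc6a18 to Slc6a19, at 2.78. Which process set these libraries apart was not tested.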

How the results depend on the processing

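Every member tested was lower in the knockout in all 19 alternative fits, and calls of the 10 members ranged from 0 to 9 when a library was left out, with 10 when control replicate 2 and knockout replicate 3 were both left out, 9 with DESeq2 and 10 with limma-voom. Genes called over all genes were 2751, between 153 and 7084 when a library was left out, 7903 without both of those libraries, 4506 with DESeq2, 8302 with limma-voom and 1235 with the adrenal covariate. Of the 30 other transport genes, between 1 and 9 were called lower and between 0 and 4 higher when a library was left out, 10 and 5 without both libraries, and 10 and 7 with limma-voom. The number called higher was 3 with DESeq2, 2 with the filter at a mean of 1 CPM and 3 in the 5 libraries with high Y-linked transcripts. The cause of these shifts was not tested. The call of Slc6a20a was lost with the adrenal covariate, and Slc6a20a was not tested with the filter at a mean of 1 CPM.

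With 5 counts added, the differences of the log2 ratios were -3.57 for Slc3a1 to Slc3a2, 1.82 for Slc7a9 to Slc3a1, -1.54 for Slc6a18 to Slc6a19 and 1.76 for Slc6a20a to Slc6a20b, each with an exact permutation adjusted p of 0.0429. Leaving out a library gave -4.16 to -3.24 for the first of these ratios and 1.71 to 2.15 for the next. The replicate numbers are not stated to pair the kidneys, and deviations of same-numbered libraries correlated at -0.108, 0.329, 0.228 and -0.0590. With the replicate block, 8 members were called (Slc3a2 added) and 2 of the other transport genes were called higher. The ratios under this block could not go below p = 0.125 in an exact sign-flip test. Depth limits Slc6a20a most, with 25 counts over the knockouts.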
